A study of Mus musculus with 6 samples.

Results

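The cytosolic ribosomal protein genes were taken as the protein-coding mouse genes whose symbol is Rpl or Rps with a number, at most 1 of the letters a, x, y or l and at most another number, together with Rpsa, Rplp0, Rplp1 and Rplp2. The kinases named Rps6k and the pseudogenes were left out. This gave 83 genes of the 49315 rows of the count table, 51 of the large and 32 of the small ribosomal subunit, and they lie on 19 chromosomes, with 14 of them on chromosome 7. No measured value entered this rule, but the family was chosen with earlier results of these data known. Messenger RNA was measured by RNA sequencing of total RNA from 6 mouse hearts of the background strain C57BL/6. Of these, 3 were wild type and 3 carried a knockout of Arrdc4 made with CRISPR-Cas9, an alpha-arrestin adaptor gene, and the series compares these groups. The labels used here give no age, sex, litter, founder line or treatment. They also leave unsaid whether each heart is a separate animal, so p-values measure the spread between these samples only.

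Every cytosolic ribosome holds nearly equal numbers of each ribosomal protein, with ribosomal RNA at its core: the small subunit reads the messenger RNA, and the large subunit joins the amino acids. The genes for these proteins are among the most transcribed in most cells, and in mammals their messenger RNAs typically begin with a C followed by an unbroken run of pyrimidines, the terminal oligopyrimidine or TOP start, through which mTOR signalling and LARP1 govern their translation together. In the heart, growth of cardiomyocytes draws on new ribosomes, and striated muscle also uses a large-subunit paralog of its own, Rpl3l.

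The start sites are shown first because a TOP start is the sequence feature for which these genes are known. Of the 83 genes, 63 had an entry in RefSeq's promoter table for GRCm38.p6, with 75 windows of 300 bases from 250 before to 50 after a start. A TOP start, here a C at the first transcribed base followed by C or T at each of the next bases for a run of at least 5, was present in 13 of the 63 genes (20.6%) and in 3.01% of the 27025 genes with an entry. The longest of the 13 runs had 13 bases and the median run had 8. The call uses the exact listed start, so a start listed a few bases off can hide a TOP start. Rpl27a, for example, has no TOP start by this rule. Its window has a T at the listed start and a pyrimidine run of 16 bases. The windows below give the 15 bases before and the 15 bases from the annotated start, 5′ to 3′ on the gene's strand, and capitals mark the pyrimidine run. Rps6 encodes the small-subunit protein phosphorylated by S6 kinase, Rps18 and Rps27 are small-subunit genes, and Rpl15, Rpl28 and Rpl35 are large-subunit genes. Rpl3l, the muscle paralog, is shown for contrast, and its window has no TOP start.
Rps6, chr4:86857353-86857382, minus strand: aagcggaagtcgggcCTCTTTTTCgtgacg
Rps18, chr17:33955651-33955680, minus strand: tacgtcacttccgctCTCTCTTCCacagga
Rps27, chr3:90213634-90213663, minus strand: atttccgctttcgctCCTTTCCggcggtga
Rpl15, chr14:18270972-18271001, minus strand: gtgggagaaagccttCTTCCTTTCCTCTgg
Rpl28, chr7:4792950-4792979, plus strand: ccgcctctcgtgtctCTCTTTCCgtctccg
Rpl35, chr2:39005117-39005146, minus strand: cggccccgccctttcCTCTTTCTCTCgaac
Rpl3l, chr17:24727811-24727840, plus strand: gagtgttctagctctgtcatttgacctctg

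Other short words were searched on both strands of the same windows, as letters only and with no claim of a bound factor. CCGGAAG, the core word of the ETS family of factors, was in the windows of 26 of the 63 genes (41.3%) and of 9.93% of all genes with an entry. GGGCGG, the GC box, was in 61.9% against 38.2%, AAGATGGCG, a YY1 word, in 6.35% against 1.64%, and TATAAA, the TATA word, in 11.1% against 15.7%. The ETS word, in capitals, is shown upstream of Rpl15 and of Rplp2, which encodes an acidic stalk protein of the large subunit; both also have a TOP start. In the Rpl15 stretch the word begins 62 bases before the start, and in the Rplp2 stretch, where it lies in reverse complement, 108 bases before it.
Rpl15, chr14:18271022-18271068, minus strand: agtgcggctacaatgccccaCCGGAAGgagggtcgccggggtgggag
Rplp2, chr7:141447523-141447569, plus strand: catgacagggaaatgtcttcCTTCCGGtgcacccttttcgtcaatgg

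Libraries held 29974501 to 41036626 counts, and levels below are in CPM, read counts divided by a library size that was first scaled with TMM, a method that lines up the bulk of the genes. Arrdc4 stood at 8.17 to 11.0 CPM in the wild-type hearts and at 0.0345 to 0.117 CPM in the knockout hearts, a log2 fold change of -6.93 (SE 0.36, n = 3 per group, edgeR adjusted p = 0.00226), and was the only gene called of 14508 tested. With knockout replicate 3 left out its edgeR adjusted p was 0.0519, past the threshold of 0.05, at a log2 fold change of -6.75. Wild-type replicate 3 and knockout replicate 2 were closer to each other than to any library of their own genotype: a chi-square of their counts gave 7.89 per degree of freedom, against at least 26.8 for every other pair. The share of counts and the counts and medians of fold changes are therefore also given without them, and single genes by the range over left-out libraries. Defining markers of cardiomyocytes were present at 96771 to 112230 CPM in sum for 15 of 15 genes, and Myh4, of skeletal muscle, was the only one of the markers looked at with 0 counts in all 6 hearts. Reads carry no molecular identifiers, and intervals of counts cover counting error only.

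Ribosomal protein genes took 1.84%, 1.48% and 2.77% of all counts in wild-type replicates 1 to 3, and 1.61%, 2.58% and 1.67% in knockout replicates 1 to 3. Wild-type replicate 3 and knockout replicate 2 were the high hearts, and the ranges of the genotypes overlapped. The mean share was 2.03% ± 0.662 (SD, n = 3) in wild-type and 1.95% ± 0.546 (SD, n = 3) in knockout hearts, a difference of -0.0789 percentage points that is smaller than either SD. Large-subunit genes gave 1.03%, 0.841% and 1.51% in the wild-type hearts and 0.912%, 1.41% and 0.946% in the knockout hearts. Small-subunit genes gave 0.809%, 0.642% and 1.26% in the wild-type hearts and 0.693%, 1.17% and 0.722% in the knockout hearts. Both subunits thus had the same 2 high hearts, but not in equal measure: the ratio of large- to small-subunit counts was 1.27, 1.31 and 1.20 in wild-type replicates 1 to 3 and 1.32, 1.21 and 1.31 in knockout replicates 1 to 3, lowest in the 2 high hearts. With knockout replicate 2 left out the difference in share was -0.394 percentage points, and with wild-type replicate 3 left out it was 0.289, so that 1 library set its sign.

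**Figure D1:**
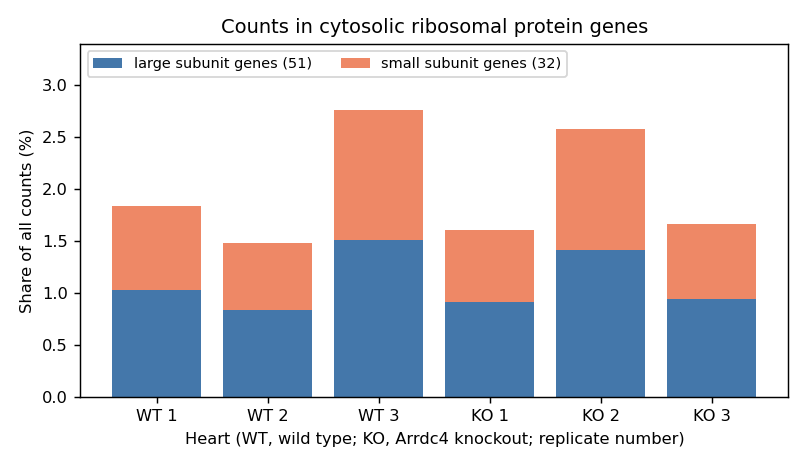
Share of all counts (%, vertical axis) in the 51 large-subunit (blue) and 32 small-subunit (orange) ribosomal protein genes in each of the 6 hearts (horizontal axis), 1 stacked bar per library. Wild-type replicate 3 (2.77%) and knockout replicate 2 (2.58%) stand above the other 4 hearts, which lie between 1.48% and 1.84%.

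Of the 83 genes, 81 passed the filter on low counts and were tested, 49 of the large and 32 of the small subunit. None was called (0 of 81), where the background over all genes tested was 0.00689%, and 0 of 81 had an unadjusted p under 0.05 in edgeR's quasi-likelihood test; DESeq2 and limma-voom called 0 as well. The log2 fold change, knockout over wild type, was above 0 for 9 genes and below 0 for 72, with a median of -0.05 and a range from -0.19 for Rpl9 to 0.08 for Rpl3l. Over all genes tested the median was 0.01, and 47.7% of genes were below 0 against 88.9% of the ribosomal protein genes. The direction turned with single libraries: without wild-type replicate 3 all 81 values were above 0 (median 0.32), without knockout replicate 2 all 81 were below 0 (median -0.40), and without both of these hearts 20 were above and 61 below (median -0.06). Leaving out knockout replicate 1 or 3 gave 78 and 77 genes above 0, and leaving out wild-type replicate 1 or 2 gave 1 gene each time. In the deposited hearts the genotypes did not separate for any of the 81 genes, where 4.07% of all genes tested had groups that did not overlap.

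The precision differed from that of the other genes. The median standard error of a log2 fold change was 0.34 for ribosomal protein genes and 0.23 over all genes tested. The 95% interval lay within a 2-fold change in either direction for 59 of the 81 genes (72.8%, against 76.5% of all genes tested), and within a 1.5-fold change for 8 (9.88%, against 39.7%). Small-subunit genes had a median of -0.08 with 29 of 32 below 0, and large-subunit genes a median of -0.04 with 43 of 49 below 0. Since the hearts are bulk tissue, fewer cells of a type and less RNA per cell cannot be told apart in any of these values.

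**Figure D2:**
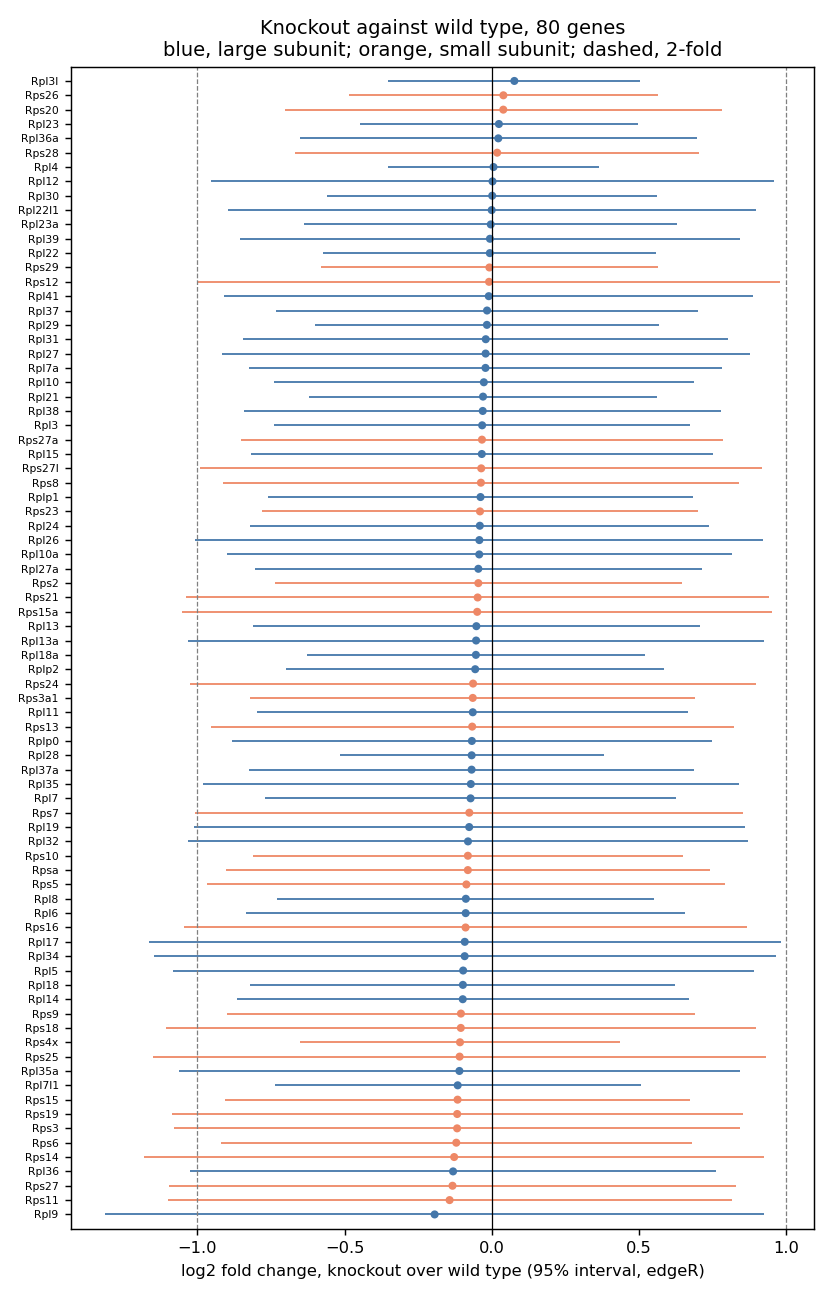
Log2 fold change, knockout over wild type (horizontal axis), of each of 80 ribosomal protein genes (vertical axis), with its 95% interval from edgeR; blue is large subunit, orange is small subunit, and dashed lines mark a 2-fold change. Every interval spans 0, and the points run from -0.19 for Rpl9 to 0.08 for Rpl3l.

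**Figure D3:**
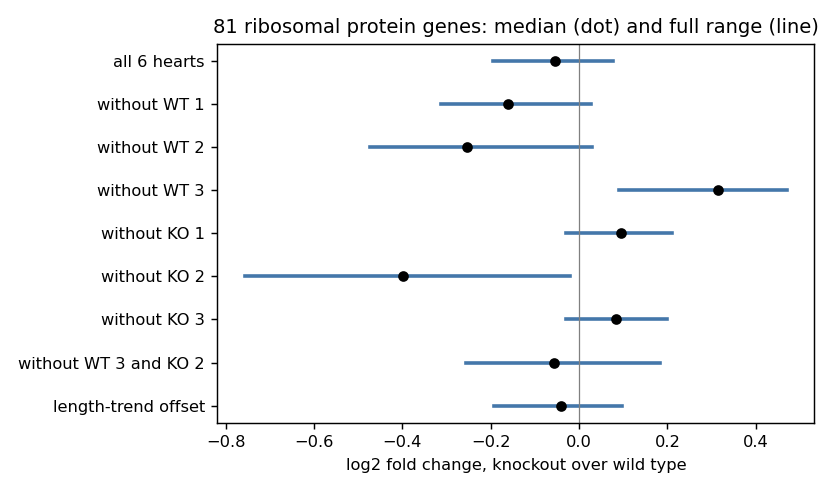
Log2 fold change, knockout over wild type (horizontal axis), over the 81 genes tested when hearts are left out or a length trend is taken off (vertical axis); the dot is the median and the line the full range. The median moves from -0.40 without knockout replicate 2 to 0.32 without wild-type replicate 3, around -0.05 with all 6 hearts.

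Among small-subunit genes, Rps4x, an X-linked core protein, had the smallest unadjusted p (0.654, edgeR's quasi-likelihood test) of all 81. Its level was 329, 291 and 467 CPM in wild-type replicates 1 to 3 and 298, 411 and 298 CPM in knockout replicates 1 to 3. Wild-type replicate 3 was highest and knockout replicate 2 next, and the groups overlapped; the log2 fold change was -0.11 (SE 0.23, edgeR adjusted p = 1). Rps6 (chromosome 4, 86854660 to 86857412, minus strand) stood at 190, 156 and 326 CPM in the wild-type hearts and at 164, 290 and 164 CPM in the knockout hearts, with a log2 fold change of -0.12 (SE 0.34). Rpsa, which encodes a small-subunit protein that is also known as a laminin receptor, stood at 460, 389 and 837 CPM in the wild-type hearts and at 428, 742 and 424 CPM in the knockout hearts, and its log2 fold change was -0.08 (SE 0.35). In each of these genes the same 2 hearts were high and the groups overlapped.

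Rps2 (chromosome 17, 24718116 to 24721929, plus strand), a small-subunit protein near the messenger RNA entry site, stood at 766, 686 and 1191 CPM in wild-type replicates 1 to 3 and at 653, 1156 and 751 CPM in knockout replicates 1 to 3. Its log2 fold change was -0.05, with a 95% interval from -0.74 to 0.65. Rps14, a small-subunit gene known from anaemia with loss of part of a human chromosome arm, stood at 399, 287 and 746 CPM in the wild-type hearts and at 298, 699 and 314 CPM in the knockout hearts. Its high hearts were wild-type replicate 3 and knockout replicate 2, with overlapping groups, and its log2 fold change was -0.13 with a 95% interval from -1.18 to 0.92.

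Of the large subunit, Rplp0, Rplp1 and Rplp2 encode the stalk that recruits elongation factors. Rplp0 stood at 683, 567 and 1125 CPM in wild-type replicates 1 to 3 and at 565, 1096 and 605 CPM in knockout replicates 1 to 3. Rplp1 stood at 352, 303 and 563 CPM and at 319, 543 and 324 CPM in the same order. Rplp2 stood at 204, 196 and 318 CPM and at 190, 308 and 192 CPM. The 3 stalk genes had log2 fold changes of -0.07 (SE 0.35), -0.04 (SE 0.31) and -0.06 (SE 0.27), and in each the groups overlapped.

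Rpl9 (chromosome 5, 65388364 to 65391444, minus strand), a large-subunit protein, had the lowest log2 fold change and the widest interval of the 81 genes. It stood at 311, 216 and 600 CPM in wild-type replicates 1 to 3 and at 220, 541 and 225 CPM in knockout replicates 1 to 3. Its high hearts were again wild-type replicate 3 and knockout replicate 2; the log2 fold change was -0.19 (SE 0.48), with a 95% interval from -1.31 to 0.92. Rpl28, a large-subunit gene with the TOP start shown above, stood at 238, 234 and 319 CPM in the wild-type hearts and at 229, 297 and 228 CPM in the knockout hearts, with a log2 fold change of -0.07 (SE 0.19). Rpl4 (chromosome 9, 64173375 to 64178666, plus strand), a protein lining the exit tunnel and the gene with the smallest standard error, was chosen after its values were seen. Its level was 375, 377 and 469 CPM in the wild-type hearts and 404, 422 and 398 CPM in the knockout hearts, with a log2 fold change of 0.01 (SE 0.15) and a 95% interval from -0.35 to 0.36.

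How the genes varied within a genotype was described by the deviation of a heart, its log2 CPM minus the mean of its own genotype. The median deviation over the 81 genes was -0.18, -0.43 and 0.61 in wild-type replicates 1 to 3, and -0.29, 0.57 and -0.26 in knockout replicates 1 to 3. Wild-type replicate 3 was the highest wild-type heart for 81 of 81 genes, as it was for 41.7% of all genes tested, and knockout replicate 2 was the highest knockout heart for 81 of 81, as it was for 41.5% of all genes tested. These 2 hearts were the 2 highest of 6 for 81 of 81 ribosomal protein genes and for 4268 of all genes tested (29.4%). The lowest wild-type heart was replicate 2 for 77 genes and replicate 1 for 4, which are Rpl23, Rpl3l, Rpl4 and Rps29.

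The deviation varied among the genes by more than 0.5 on the log2 scale. In wild-type replicate 3 it ran from 0.18 for Rpl3l to 0.81 for Rpl9, and in knockout replicate 2 from 0.05 for Rpl4 to 0.85 for Rpl9. The genes followed each other in both hearts: across the 81 genes, which share their libraries and are not independent replicates, Pearson's r of the 2 deviations was 0.904, and across all 14508 genes tested 0.684. The genes at the low end in both hearts were Rpl4, Rpl3l, Rpl28 and Rpl23, and those at the high end were Rpl9, Rpl17, Rpl34, Rps25 and Rps14. The median deviation of small-subunit genes was 0.66 and 0.63 in these 2 hearts, and that of large-subunit genes 0.57 and 0.54.

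**Figure D4:**
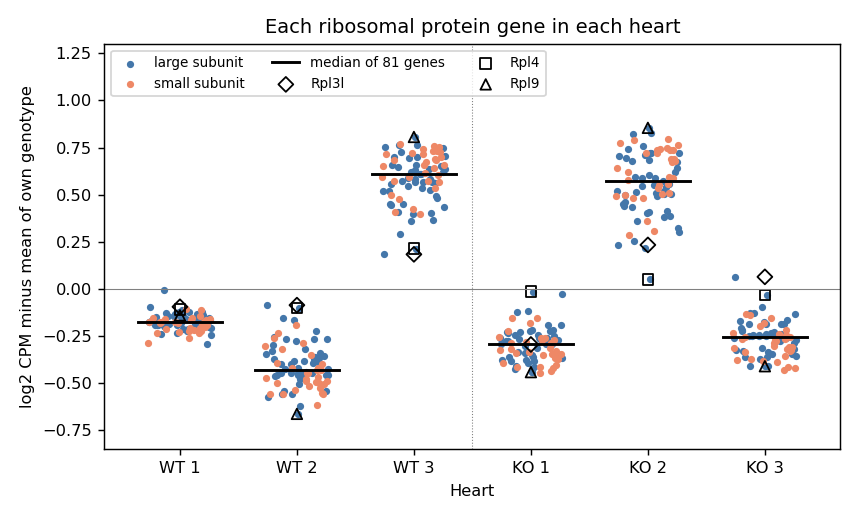
Log2 CPM of each ribosomal protein gene minus the mean of its own genotype (vertical axis) in each heart (horizontal axis); blue is large subunit, orange is small subunit, bars are medians of the 81 genes, and open symbols mark Rpl3l, Rpl4 and Rpl9. In wild-type replicate 3 and knockout replicate 2 all 81 genes lie above 0, with medians of 0.61 and 0.57.

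Ribosomal protein transcripts are short, and transcript length moved with the deviation over all genes. The principal transcripts ran from 345 bases for Rps27 to 5130 for Rps15a, with a median of 775 over the 83 genes, and the coding lengths from 75 bases for Rpl41 to 1257 for Rpl4. Among other protein-coding genes of at most 500 bases (77 genes) the median deviation was 0.50 in wild-type replicate 3 and 0.60 in knockout replicate 2, and among those above 5000 bases (2350 genes) -0.25 and -0.31. The 15 ribosomal protein genes of at most 500 bases had 0.61 and 0.67. The 22 of 501 to 750 bases had 0.65 and 0.62, where 260 other genes had 0.37 and 0.48. At 751 to 1000 bases the 23 ribosomal protein genes had 0.58 and 0.51, where 451 other genes had 0.33 and 0.40. At 1001 to 1500 bases the 13 ribosomal protein genes had 0.57 and 0.50, where 1342 other genes had 0.22 and 0.28. A length trend was taken off each library by the summed length of all exons, not by the principal transcript. By that measure the 83 genes had a median of 1770 bases. The median deviation of the 81 genes was then 0.42 in wild-type replicate 3 and 0.40 in knockout replicate 2. A trend on principal transcript length was not taken off. The part of length in the result was not tested further.

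**Figure D5:**
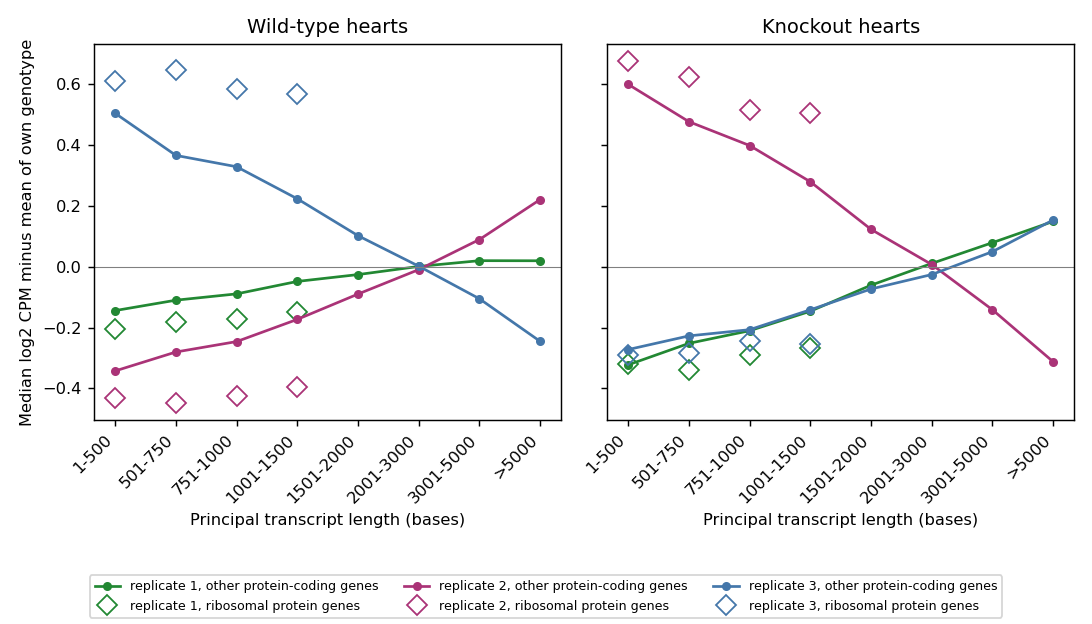
Median log2 CPM minus the mean of the own genotype (vertical axis) against principal transcript length in bases (horizontal axis), for other protein-coding genes (dots and lines) and ribosomal protein genes (diamonds, bins of 13 to 23 genes), in wild-type hearts (left) and knockout hearts (right), 1 colour per replicate. Short genes lie above 0 in wild-type replicate 3 and knockout replicate 2 (0.50 and 0.60 at up to 500 bases) and below 0 in the other 4 hearts.

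Some other measures moved with the same hearts, and others did not. The summed markers of fibroblasts (12 of 12 genes present) were 1437, 1879 and 1296 CPM in wild-type replicates 1 to 3 and 2360, 1046 and 2088 CPM in knockout replicates 1 to 3. Endothelial markers (10 of 10 present) summed to 906, 1140 and 878 CPM and to 1205, 842 and 1040 CPM in the same order. Both sums were lowest, within each genotype, in the heart where the ribosomal protein genes were highest, though not every gene of the lists was. Epicardial markers (10 of 10 present) summed to 15, 9.24 and 8.18 CPM in the wild-type hearts and to 40.4, 6.44 and 22.5 CPM in the knockout hearts. These sums were again lowest in wild-type replicate 3 and knockout replicate 2. The median deviation of the epicardial list was lowest in wild-type replicate 2 (-0.27, against -0.17 in replicate 3) and in knockout replicate 2 (-1.57). Erythroid markers (7 of 7 present) went the other way in sum only. Their sums were 525, 674 and 759 CPM in the wild-type hearts and 765, 801 and 453 CPM in the knockout hearts. Hbb-bs weighed most in them, at 307, 357 and 476 CPM and at 399, 499 and 244 CPM. The median deviation over the 5 erythroid genes tested was 0.22 in wild-type replicate 2, against 0.04 in replicate 3. In the knockout hearts it was 0.35 in replicate 1, against 0.06 in replicate 2. Adipocyte markers (7 of 7 present) summed to 367, 388 and 473 CPM and to 379, 459 and 370 CPM. Wild-type replicate 3 and knockout replicate 2 had the largest of these sums within their genotypes. Nearly all of each sum came from Fabp4, which is also on the endothelial list. Smooth muscle and pericyte markers (9 of 9 present) were highest in wild-type replicate 3 and lowest in knockout replicate 2. Their sums were 1052, 1066 and 1097 CPM and 1189, 979 and 1119 CPM. The macrophage sum was lowest in wild-type replicate 1 and knockout replicate 2, at 281, 328 and 324 CPM and at 459, 236 and 251 CPM. Lyz2 weighed most in it, at 130, 125 and 205 CPM in the wild-type hearts. The median deviation of the macrophage list was lowest in wild-type replicate 3 (-0.31, against -0.06 in replicate 1) and in knockout replicate 2 (-0.69). Lymphocyte markers were lowest in replicate 3 of both genotypes, at 18.3, 10.8 and 10.7 CPM and at 20.8, 13.5 and 11.6 CPM. The skeletal muscle sum was lowest in wild-type replicate 3 and highest in knockout replicate 2. It was 2744, 3028 and 2655 CPM in the wild-type hearts and 2534, 2648 and 2402 CPM in the knockout hearts. Most of it was Ckm, which is also on the cardiomyocyte list. Tnni2 and Mylpf, at most 2.87 CPM, were highest of their genotype in both of these hearts, and Acta1 was lowest in both. The cardiomyocyte sum was neither highest nor lowest of its genotype in wild-type replicate 3 or in knockout replicate 2. The genes of the mitochondrial genome took 23.0%, 25.1% and 26.2% of the counts in the wild-type hearts and 25.7%, 27.7% and 21.8% in the knockout hearts. Their part in the result was not tested. Of ribosomal pseudogenes with a symbol ending in ps and a number, 173 of 280 rows had a count. Together these rows held 0.215% to 0.256% of the counts of genes and such pseudogenes. Pseudogenes under other symbols were not counted here. The share also depends on the handling of multi-mapping reads, which is not given.

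Levels of different genes were compared per length, as CPM per kilobase of the principal coding transcript, averaged over the 6 hearts. Among the highest were Rps2 at 869 ± 242 (SD, n = 6), Rplp1 at 803 ± 239, Rps14 at 766 ± 351 and Rps15 at 684 ± 230. These are small-subunit genes apart from Rplp1. The lowest of the 81 tested were Rpl7l1 at 22.8 ± 5.77, Rps20 at 36.8 ± 11.5, Rps15a at 38.8 ± 16.9, Rpl22l1 at 48.9 ± 19 and Rpl3 at 112 ± 33.1 CPM per kilobase. Rpl7l1 and Rpl22l1 are paralogs of general subunit genes, whereas Rps20 and Rps15a are core genes with long untranslated ends in the annotated principal transcript.

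The median level was 293 CPM per kilobase, 254 for the 49 large-subunit and 363 for the 32 small-subunit genes. Of the 80 pairs of neighbours in this order, 2 differed by more than the larger SD of the pair, Rpl3 above Rpl22l1 and Rps20 above Rpl7l1. That SD includes the shift between hearts that the genes share, so it does not measure how steady a difference within hearts is. Rps2, for example, ranked above Rplp1 in every heart, and Rpl22l1 ranked 78 in every heart. The order depends on the length used: per coding length Rps15a moved from rank 79 to 35, Rps20 from 80 to 61 and Rpl41, whose protein is the shortest, from 23 to 1, while small-subunit genes kept the higher median (553 against 440). Transcripts with different real ends than the annotated ones would shift these levels.

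The paralogs were set against their general forms as the log2 ratio of counts within a heart, which needs no scaling between libraries. Rpl3l (chromosome 17, 24727820 to 24736143, plus strand; exons 10) stood at 220, 222 and 267 CPM in wild-type replicates 1 to 3 and at 201, 289 and 257 CPM in knockout replicates 1 to 3. Rpl3 (chromosome 15, 80077791 to 80091868, minus strand), the general form near the peptidyl transferase centre, stood at 126, 108 and 227 CPM and at 145, 183 and 123 CPM in the same order. Rpl3l thus exceeded Rpl3 in all 6 hearts and gave 63.6%, 67.1% and 54.1% of the counts of the pair in the wild-type hearts and 58.0%, 61.3% and 67.7% in the knockout hearts. The coding sequences of the pair are 74.1% identical, with a longest shared run of 22 bases.

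The log2 ratio of Rpl3l to Rpl3 was 0.69 ± 0.41 (SD, n = 3) in wild-type and 0.73 ± 0.31 (SD, n = 3) in knockout hearts, a difference of 0.04 (two-sided exact permutation p = 0.9). Rpl3l itself had a log2 fold change of 0.08 (SE 0.18, 95% interval from -0.35 to 0.50) and Rpl3 one of -0.03 (SE 0.30). Their ratio was lowest in wild-type replicate 3, where Rpl3 deviated by 0.64 and Rpl3l by 0.18, and without that heart the difference was -0.19.

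In the other pairs the paralog was the lower form. Rpl22l1 gave 12.8% to 19.2% of the counts of its pair with Rpl22, Rps27l 19.5% to 21.8% with Rps27, Rpl7l1 13.6% to 15.7% with Rpl7, and Rpl36al, which falls outside the symbol rule, 38.6% to 43.9% with Rpl36a. The difference of the log2 ratio, knockout minus wild type, was 0.05 for Rpl22l1 (exact permutation p = 0.9), 0.07 for Rps27l (exact permutation p = 0.3), -0.04 for Rpl7l1 (exact permutation p = 0.7) and -0.10 for Rpl36al (exact permutation p = 0.4). With 1 library left out at a time these differences ran from -0.11 to 0.23 for Rpl22l1, from 0.037 to 0.13 for Rps27l, from -0.076 to 0.030 for Rpl7l1 and from -0.20 to -0.040 for Rpl36al. With 3 hearts against 3 the smallest possible p is 0.1, and all 5 pairs had an adjusted p of 0.9 by the exact permutation test over 5 pairs. Rpl36al and Rpl36a have coding sequences 87.7% identical, so reads may be shared between them.

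The remaining pairs could not be compared. Rpl10l, a testis form of Rpl10 with a single exon, had 1 count in knockout replicate 2 and 0 in the other 5 hearts; a count of 0 in those hearts allows up to 0.0700 to 0.0949 CPM. Rpl39l, a paralog of Rpl39, had 2, 3 and 22 counts in wild-type replicates 1 to 3 and 6, 2 and 1 in knockout replicates 1 to 3. These 2 genes are the ones kept out by the filter. Their general forms had log2 fold changes of -0.03 (Rpl10, SE 0.30) and -0.01 (Rpl39, SE 0.36).

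Genes with a TOP start are given beside the rest of the 63, without a test of the difference. Log2 fold changes of the 13 genes were below 0 in 13 of 13 and had their median at -0.07, and median deviations of 0.61 in wild-type replicate 3 and 0.59 in knockout replicate 2. The 48 tested genes with an entry and no TOP start had a median of -0.05, with 41 of 48 below 0, and deviations of 0.60 and 0.58. Because the call needs the exact listed start, the 48 may include genes whose messenger RNAs do begin with a TOP start.

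Proteins of the ribosome outside the symbol rule followed the same hearts. Fau, which encodes a fusion of a ubiquitin-like protein with a small-subunit protein, stood at 121, 103 and 224 CPM in wild-type replicates 1 to 3 and at 102, 203 and 101 CPM in knockout replicates 1 to 3. Rack1, a scaffold on the small subunit, stood at 302, 235 and 544 CPM and at 257, 485 and 257 CPM. The log2 fold change was -0.14 (SE 0.38) for Fau, -0.11 (SE 0.38) for Rack1 and -0.04 (SE 0.34) for Rpl36al, and none of the 3 was called. In wild-type replicate 3 and knockout replicate 2, Fau deviated by 0.67 and 0.67 and Rack1 by 0.69 and 0.61.

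Mitochondrial ribosomal proteins, which are encoded in the nucleus and build the separate ribosome of mitochondria, were taken as a list for comparison. Of 78 tested, 3 were above and 75 below 0, their median was -0.11 on the log2 scale, and 0 were called. Their median deviations were 0.36 in wild-type replicate 3 and 0.51 in knockout replicate 2. With the trend on summed exon length taken off they were 0.23 and 0.36, where the cytosolic genes had 0.42 and 0.40. The median principal transcript length of the mitochondrial list was 1252 bases, against 774 for the 81 cytosolic genes tested. The difference between the lists was not tested.

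The rest of the translation machinery was examined by lists. Of 11 genes on the elongation list, 4 were above and 7 below 0 and 0 were called. The list holds elongation factors and related genes such as Tpt1, Eef2k and Eef1e1. Its smallest p values belonged to Eif5a2, at a log2 fold change of 0.73 (SE 0.37), and Eef1g, at -0.12 (SE 0.19). Tpt1 and Eef1b2, both known TOP messenger RNAs, followed the ribosomal protein genes: Tpt1 stood at 1007, 908 and 1768 CPM in wild-type replicates 1 to 3 and at 897, 1660 and 932 CPM in knockout replicates 1 to 3. Eef2, the translocation factor and likewise a TOP messenger RNA, had the other order, with 1194, 1485 and 1163 CPM in the wild-type hearts and 1366, 1018 and 1480 CPM in the knockout hearts. These 3 genes were picked after their values were seen. Of 40 initiation factor genes 15 were above and 25 below 0, among them Eif2b4 at -0.15 (SE 0.15) and Eif2b2 at -0.13 (SE 0.13), and 0 were called.

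Lists that make or govern ribosomes had median deviations nearer to 0 in the hearts where ribosomal protein genes were high. The 58 ribosome biogenesis genes tested had median deviations of 0.00 in wild-type replicate 3 and 0.04 in knockout replicate 2, where the ribosomal protein genes had 0.61 and 0.57. The median transcript length of the biogenesis genes was 2639 bases. Other protein-coding genes of 2001 to 3000 bases had 0.00 and 0.01 in these hearts. The part of length in the contrast with ribosomal protein genes was not tested. Of the 58 biogenesis genes, 23 were above and 35 below 0 in log2 fold change, with Nol9 at 0.18 (SE 0.15) and Nolc1 at 0.21 (SE 0.18). The 15 genes of RNA polymerase I and its factors, which transcribe ribosomal RNA, had 6 above and 9 below, with Taf1b at -0.26 (SE 0.26) and Polr1c at -0.23 (SE 0.29). The 21 mTOR and TOP regulators had 10 above and 11 below, with Mycn at 1.10 (SE 0.51) and Mlst8 at -0.17 (SE 0.14), and median deviations of -0.10 and -0.14. Single libraries moved the fold changes of the named genes: Mycn was at 0.41 without knockout replicate 1, Polr1c at -0.025 without wild-type replicate 3 and Taf1b at -0.55 without knockout replicate 2. None of these genes was called.

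Lists of responses to faulty ribosomes gave 0 calls as well. Of 12 p53 and nucleolar stress genes, 7 were above and 5 below 0, with Cdkn1a, a cell cycle inhibitor, at -0.88 (SE 0.51) and Trp53 at 0.24 (SE 0.21). Cdkn1a was at -0.20 without wild-type replicate 3, and Trp53 at 0.062 without knockout replicate 1. Of 12 ribosome quality control genes, 6 were above and 6 below, with Usp10 at 0.11 (SE 0.13) and Hbs1l at -0.11 (SE 0.13). Of 9 tested noncoding genes of snoRNA hosts and related RNAs, 5 were above and 4 below. Their median deviations were 0.46 in wild-type replicate 3 and 0.48 in knockout replicate 2, at a median length of 502 bases. With the trend on summed exon length taken off these deviations were 0.26 and 0.44. Snhg8 stood at 0.11 (SE 0.28), and Rpph1, the RNA of ribonuclease P, at -2.18 (SE 0.69, unadjusted p = 0.0153 and adjusted p = 1 in edgeR's quasi-likelihood test), with levels of 0.949, 0.320 and 0.298 CPM in the wild-type hearts and 0.0933, 0.207 and 0.0524 CPM in the knockout hearts.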

How the data were processed

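Per the labels' protocols, total RNA of 6 mouse hearts was isolated with an RNeasy kit and libraries were built with NEBNext Ultra II RNA reagents. The authors deposited raw read counts, 1 whole number per gene and library. Per the submitters' processing notes the tools were STAR, Subread 1.5.2 with featureCounts, and DESeq2, with the mouse build GRCm38.p6; their roles are not stated. Which annotation release was counted, whether strand was used and what happened to multi-mapping reads is not given in the sources used here. Ribosomal protein genes have many near-identical pseudogene copies, so their counts depend on that handling. Columns were matched to samples by title.

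From the counts, genes were kept by filterByExpr (minimum count 10, minimum total 15), scaled by TMM and tested in edgeR 4.0.16 (R 4.3.3) with glmQLFTest, the quasi-likelihood test, adjusted by Benjamini-Hochberg over all 14508 genes at a threshold of 0.05. The standard error was taken from the F statistic. Deviations used log2 CPM with a prior count of 2. Paralog ratios needed at least 10 counts of both genes in every heart. Symbols, lengths and coordinates came from GENCODE M21 on GRCm38, where 49056 of 49315 rows had a symbol. One principal transcript per gene was taken by APPRIS rank, then support level, then the shortest. The fit was tested on simulated data.

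The genes and lists were chosen with earlier results of these data known. Named genes are Arrdc4, the paralog pairs, the 6 ribosomal protein genes with the smallest p, the 5 highest and 5 lowest per length, the most positive and most negative fold change, those kept out by the filter, Rpsa, the stalk genes, Fau and Rack1, and up to 2 genes of smallest p per list. Rpl4, Rpl23, Rpl17, Rpl34, Rps25, Rps29, Rpl13, Rpl41, Tpt1, Eef1b2 and Eef2 were named after their values were seen. Rps18, Rpl15 and Rpl35 were named for the TOP starts printed, and Rpl27a for its pyrimidine run. Some genes that this rule takes are not reported here. Alternatives were DESeq2 size factors, library size alone, no filter, DESeq2 1.42.0, limma-voom (limma 3.58.1), a replicate block, each library left out, wild-type replicate 3 and knockout replicate 2 left out together, an offset for each library's spline trend on exon length (6 degrees of freedom), and other lengths and denominators; the coding length was added after the data were seen.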

Additional observations from a re-analysis of the deposited data

How the results depend on the processing

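No ribosomal protein gene was called under any of the 14 alternatives, and the median log2 fold change of -0.05 stayed between -0.07 and -0.04 with all 6 hearts. The count of 9 genes above 0 was 17 with no filter, 17 with limma-voom, 14 with the replicate block, 20 without wild-type replicate 3 and knockout replicate 2 together and 23 with the length offset, and it ran from 0 (without knockout replicate 2) to 81 (without wild-type replicate 3) when 1 library was left out. Over all genes the 1 call was lost with the replicate block (0 calls, Arrdc4 at -7.00 with an edgeR adjusted p of 0.0507) and without knockout replicate 3 (0 calls, adjusted p 0.0519); other left-out libraries gave 1, and 2 genes were called without both hearts. The labels used here do not say whether replicate numbers pair the hearts. Deviations of same-numbered hearts correlated at 0.184, -0.649 and -0.399, so the main differences between hearts did not follow the number. Deviations of 3 hearts per genotype cannot show whether a weaker pairing exists. The block changed no call among the ribosomal protein genes, whose median was -0.05 with it. The median level of 293 CPM per kilobase was 118 by the summed length of all exons and 474 by coding length. The difference in the share of counts ran from -0.394 to 0.289 percentage points when 1 library was left out.

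Values near 0 changed sign under some settings. Rpl22l1 was 0.0091 by library size alone, 0.013 with no filter, 0.036 with limma-voom, 0.032 with the replicate block, 0.090 without both hearts and 0.027 with the length offset. Rpl39 was 0.00057, 0.0060, 0.0097, 0.0015, 0.0063 and 0.025 under the same settings in this order. Rpl3 was 0.027 with limma-voom, 0.029 with the replicate block and 0.18 without both hearts, and Rpl10 was 0.014, 0.0071 and 0.078 there and 0.0011 with the length offset. Rpl4 was -0.0068 with DESeq2's size factors and -0.0067 with DESeq2, Rpl22 was 0.0056 with no filter, and Rplp1 was 0.019 with the length offset. With 1 library left out at a time the log2 fold changes spanned 0 for many genes: Rpl3 from -0.23 to 0.36, Rpl3l from -0.046 to 0.21, Rpl22 from -0.24 to 0.20, Rpl22l1 from -0.36 to 0.46, Rps27 from -0.59 to 0.32, Rps27l from -0.53 to 0.37, Rpl7 from -0.37 to 0.21, Rpl7l1 from -0.37 to 0.11, Rpl39 from -0.39 to 0.40, Rpl10 from -0.26 to 0.32, Rpl36a from -0.24 to 0.33, Rpl36al from -0.44 to 0.27, Rps4x from -0.28 to 0.12, Rpl9 from -0.76 to 0.32, Rpl28 from -0.21 to 0.09, Rps6 from -0.45 to 0.25, Rps2 from -0.33 to 0.23, Rplp1 from -0.34 to 0.27, Rps14 from -0.64 to 0.35, Rps15 from -0.47 to 0.23, Rps20 from -0.25 to 0.40, Rps15a from -0.55 to 0.40, Rpsa from -0.40 to 0.32, Rplp0 from -0.44 to 0.27, Rplp2 from -0.33 to 0.20, Rack1 from -0.49 to 0.31, Fau from -0.56 to 0.27, Rpl4 from -0.050 to 0.12, Eef1g from -0.24 to 0.056, Snhg8 from -0.10 to 0.40. Other named genes kept their sign: Eif5a2 from 0.45 to 1.11, Eif2b4 from -0.26 to -0.081, Eif2b2 from -0.21 to -0.084, Nol9 from 0.11 to 0.25, Nolc1 from 0.098 to 0.34, Taf1b from -0.55 to -0.13, Polr1c from -0.53 to -0.025, Mycn from 0.41 to 1.505, Mlst8 from -0.24 to -0.12, Cdkn1a from -1.15 to -0.20, Trp53 from 0.062 to 0.41, Usp10 from 0.073 to 0.18, Hbs1l from -0.17 to -0.057 and Rpph1 from -2.75 to -1.44. The cause of these shifts was not tested. Low counts kept Rpl10l and Rpl39l out of the test.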

Other observations

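Ranked by level per kilobase of principal transcript within each heart, some ribosomal protein genes held another place in the hearts where the group was high. Rps2 ranked 1 in 4 hearts and 2 in wild-type replicate 3 and knockout replicate 2, where Rps14 ranked 1. Rps29 ranked 12 in each of these 2 hearts, and 6 or 9 in the other 4. Rpl13 ranked 15 in wild-type replicate 3 and 17 in knockout replicate 2, and 10 in the other 4. Rpl39l had 22 counts in wild-type replicate 3, a heart in which Rpl39 stood at 129 CPM, and at most 6 counts in any other heart. In knockout replicate 2, where Rpl39 stood at 127 CPM, Rpl39l had 2 counts.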
